A study of Schizosaccharomyces pombe with 2 samples.

Results

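The genes of pre-mRNA splicing were compared between 2 strains of the fission yeast Schizosaccharomyces pombe. They were taken by gene symbol, as rows above 0 in both arrays whose lower-case symbol was cwf, prp, usp, lsm, sap, spf, slu, smd or saf followed by a number, or was cdc5, cdc28, smb1, sme1, smf1 or smg1. This gave 81 probe sets of 81 genes, out of 4999 S. pombe probe sets above 0. All 81 matched a gene of the reference annotation. Set apart as outside splicing were 2 members that share a symbol with the splicing genes but whose known role is elsewhere. The gene sap1 encodes a DNA-binding protein that acts at replication fork barriers, and spf1 a subunit of the Set1 histone methyltransferase complex. The product of lsm1 acts in cytoplasmic mRNA decay, but lsm1 was kept with the Lsm genes and counted among the splicing genes.

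Wild-type cells were of strain JP1225 and subtelomere-deleted cells of strain ST3479, named SD5, both of mating type h-. The subtelomeres are the regions beside the telomere repeats, and the labels do not say which of them SD5 lacks. Both were grown exponentially at 32 °C in YES, a rich medium. Each strain was measured on 1 array, so no test was possible, every value describes these 2 arrays, and a strain cannot be told apart from its culture or its array.

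Splicing removes introns from pre-mRNA in a spliceosome built from small nuclear ribonucleoproteins (snRNPs). The U1 snRNP recognises the 5′ splice site and the U2 snRNP the branch site, after which the U4/U6.U5 tri-snRNP joins. The Prp19/Cdc5 complex then stabilises the active form, and RNA helicases drive it from step to step. Many S. pombe genes contain introns, and the cwf genes are named for products that associate with Cdc5.

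Signals are linear intensities of probe sets, which show how bright a probe set is and cannot be compared between genes as amounts of mRNA. Background was set by 79 control and reporter probe sets that match no S. pombe RNA, at their 95th percentile. It was 17.7 in wild-type cells and 26.6 in SD5 cells. All 81 members lay above it in both arrays, from 95.9 to 6495 in the wild-type (median 1118) and from 73.6 to 5626 in SD5 (median 958). Across all probe sets above background in both arrays the SD5 signal was 0.869-fold that of the wild-type, a shift of -0.20 in log2. All ratios below are log2 differences of SD5 minus wild-type relative to that shift, so 0 means that a gene moved with the array as a whole. A change common to all mRNAs of a cell cannot be seen in them. Before this centring 78 members were dimmer in SD5 and 3 were brighter, namely cwf21, sme1 and spf30. The median log2 ratio was then -0.18 for the members and -0.20 for all probe sets, so the dimming was not particular to the members.

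The splicing genes had nearly the same relative signal in both strains, as did most probe sets. Within 0.1 of 0 in log2 lay 55 of 81 members (67.9%), beside 65.2% of all probe sets. None of the 81 members was 2-fold lower or higher, where 0.815% of 4905 probe sets with a ratio were lower and 0.0612% higher. None differed by 25% either, counted as the brighter over the dimmer array (0.32 in log2), where 2.71% of all probe sets were lower and 1.71% higher. Among the 4464 probe sets in the members' range of signal, which leaves out the dimmest and the brightest, 3.07% differed by 25% in either direction. The member farthest from 0 was 1.17-fold away. The median log2 ratio of the members was 0.020 beside -0.0011 for all probe sets, and 49 of 81 (60.5%) were above 0 beside 49.4% of all. Their interquartile range was 0.10, against 0.14 for all probe sets. The log2 signals of the 2 arrays correlated at r = 0.998 over the 81 members and 0.940 over all 4905, as a description across genes. The latter includes probe sets below background in SD5.

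**Figure D1:**
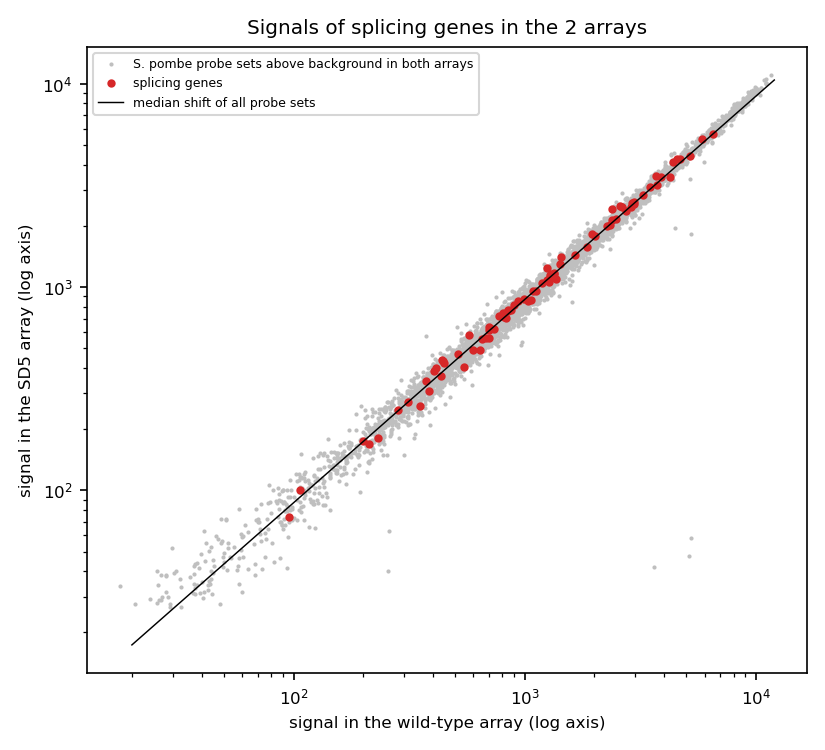
Signal in the SD5 array (vertical, log axis) against signal in the wild-type array (horizontal, log axis) for the 81 splicing genes (red) and all S. pombe probe sets above background in both arrays (grey); the line is the median shift of 0.869-fold. The 81 members lie along the line from the dimmest, spf1 (set outside splicing), at 95.9 in the wild-type, to the brightest, smg1, at 6495.

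The Sm proteins form a ring of 7 around the RNA of the U1, U2, U4 and U5 snRNPs, and all 7 genes were measured. The SmB gene smb1 had a signal of 3261 in wild-type cells and 2841 in SD5 cells (log2 ratio 0.0042). Of the SmD genes, smd1 had 2959 and 2630 (0.03), smd2 had 2905 and 2599 (0.04), and smd3 had 5860 and 5322 (0.06). These ratios all lay between the lower and upper quartiles of all probe sets, -0.07 and 0.07. For the SmF gene, smf1 had 4688 and 4265 (0.07). The SmG gene smg1, the brightest member, had 6495 and 5626 (-0.0040). The SmE gene sme1 stood apart from the other 6, with 573 in wild-type cells and 579 in SD5 cells (0.22). It was also the dimmest probe set of the ring. The other 6 genes spanned only -0.0040 to 0.07, and the median of the ring was 0.04.

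The Lsm proteins are relatives of the Sm proteins: Lsm2 to Lsm8 bind the 3′ end of U6 RNA, and a second ring with Lsm1 in place of Lsm8 acts in cytoplasmic mRNA decay. Of 8 genes, 6 were above 0, with a median of 0.07. The gene lsm1 was the highest, with 2572 in wild-type cells and 2499 in SD5 cells (log2 ratio 0.16). Its counterpart in the U6 ring, lsm8, had 374 and 345 (0.09). The shared subunit genes spread to both sides of 0. Above 0 were lsm7, with 4365 and 4126 (0.12), lsm5, with 4538 and 4277 (0.12), lsm2, with 3475 and 3119 (0.05), and lsm3, with 3900 and 3459 (0.03). Below it were lsm4, with 5160 and 4424 (-0.02), and lsm6, with 4259 and 3465 (-0.09). The ratios of lsm6 and lsm7, whose products sit in the same rings, lay farther apart than those of any pair of U1 snRNP genes.

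**Figure D2:**
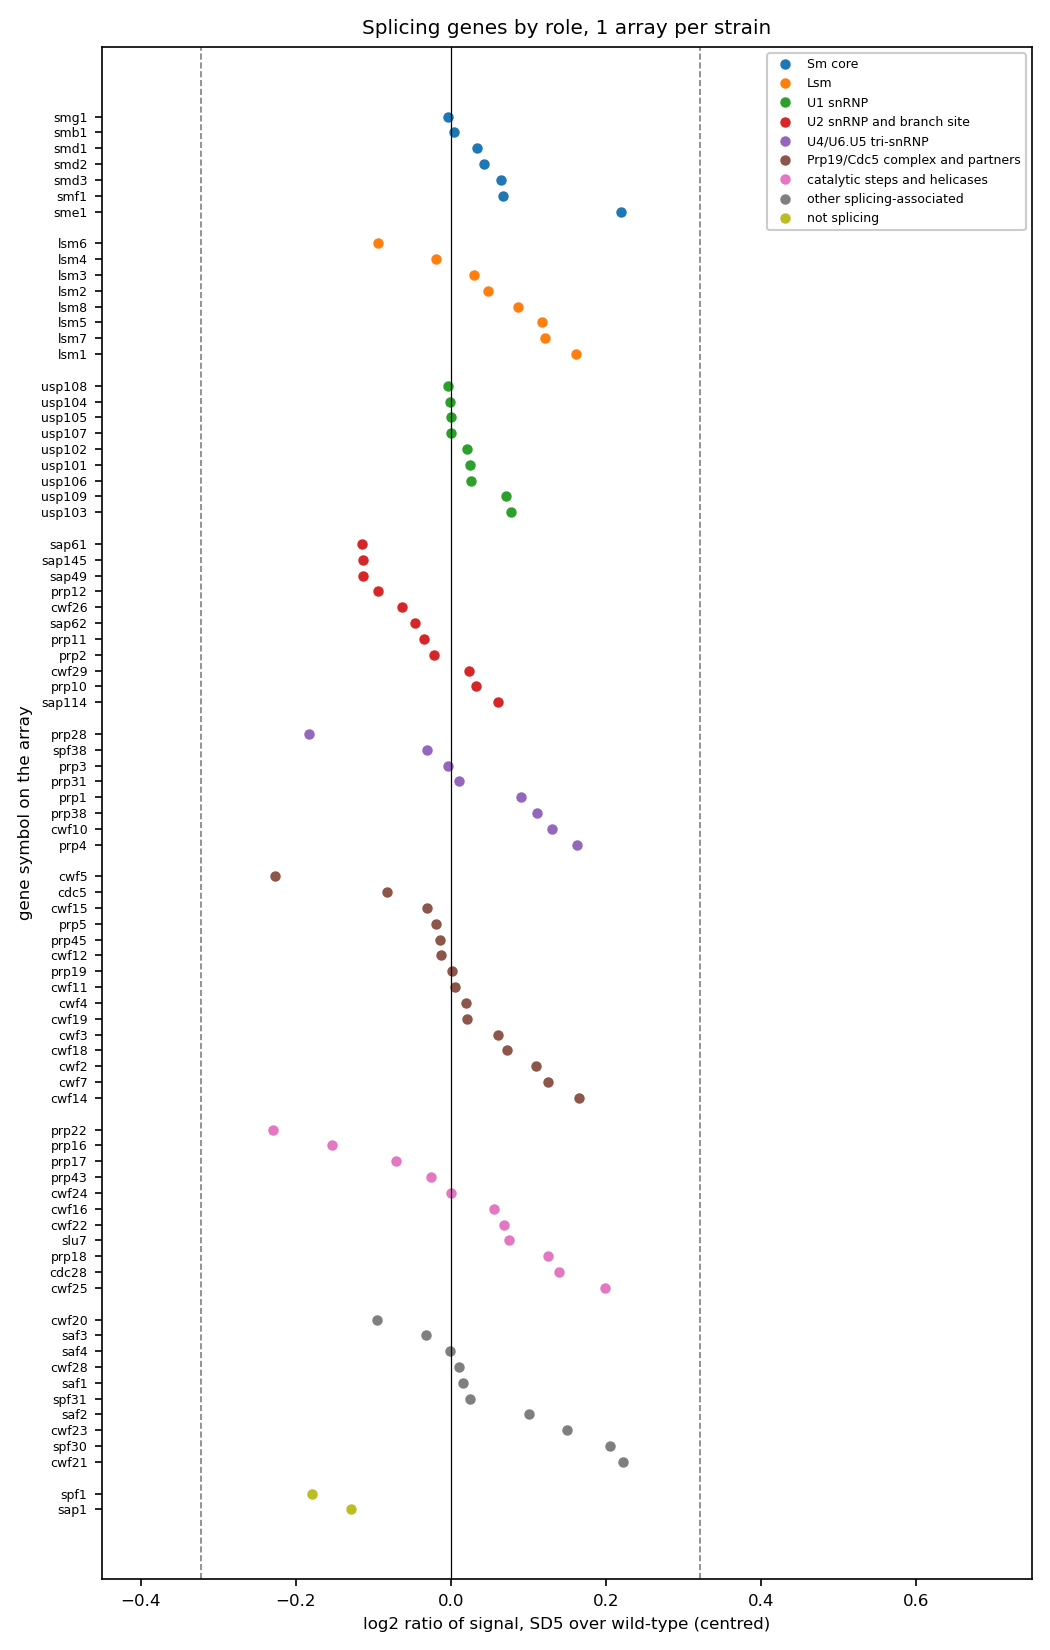
Centred log2 ratio of signal, SD5 over wild-type (horizontal), of each of the 81 genes (1 point per gene, 1 array per strain), grouped and coloured by role; dashed lines mark a 25% difference. All points lie between -0.23 and 0.22, with the U1 snRNP genes in the narrowest range of the 8 splicing groups and prp22, cwf5 and cwf21 at the extremes.

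The 9 genes of the U1 snRNP had the most uniform ratios of the 8 splicing groups, from -0.0031 to 0.08 with an interquartile range of 0.03. The lowest was usp108, with 1286 in wild-type cells and 1114 in SD5 cells. The highest was usp103, the gene of the U1 snRNP protein C, with 697 and 639. The U1-70K gene usp101 had a log2 ratio of 0.02 and the U1 snRNP protein A gene usp102 one of 0.02. The genes usp104, usp105 and usp106, now named prp40, prp39 and luc7, lay at -0.00062, -0.00016 and 0.03.

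The U2 snRNP and branch site group had the lowest median of the 8 splicing groups (log2 ratio -0.05), with 8 of 11 genes below 0. Of these 8, 5 lie in the SF3a and SF3b complexes, which hold U2 at the branch site. The SF3a gene sap61 had 384 in wild-type cells and 308 in SD5 cells (-0.11). The SF3b genes sap145, with 699 and 561 (-0.11), and sap49, with 1365 and 1096 (-0.11), were at the same ratio. The remaining genes of these complexes were spread more widely. The gene prp12, of the large SF3b scaffold, lay at -0.09 and sap62 at -0.05, while prp10, the counterpart of human SF3B1, lay at 0.03. The SF3a gene sap114 was highest, with 937 and 849 (0.06). Over all 7 SF3 genes the median was -0.09, and 5 were below 0. The large U2AF subunit gene prp2, whose product binds the polypyrimidine tract, was at -0.02, and the DEAD-box helicase gene prp11 at -0.03.

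The U4/U6.U5 tri-snRNP group had a median log2 ratio of 0.05 over 8 genes and held members on both sides. The DEAD-box helicase gene prp28, whose product in budding yeast displaces U1 from the 5′ splice site, had 639 in wild-type cells and 489 in SD5 cells (-0.18). At the other side was prp4, the gene of a protein kinase needed for spliceosome activation, with 1439 and 1399 (0.16). Its substrate in S. pombe is the product of prp1, which lay at 0.09. The U5 GTPase gene cwf10 had 447 and 425 (0.13). The U4/U6 genes prp3 and prp31 lay at -0.0039 and 0.01.

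The Prp19/Cdc5 complex and its partners had a median log2 ratio of 0.0058 over 15 genes, of which 9 were above 0. Its 2 name-giving genes were near or below 0, with the ubiquitin ligase gene prp19 at 0.0016 and the Myb-domain gene cdc5 at -0.08. The lowest was cwf5, the counterpart of budding yeast ECM2, with 351 in wild-type cells and 261 in SD5 cells (-0.23). The gene of the RNA-binding protein Cwf2 lay at 0.11. The highest was cwf14, the counterpart of budding yeast BUD31, with 444 and 433 (0.17). The scaffold genes cwf3 and cwf4 lay at 0.06 and 0.02, and cwf7 at 0.13.

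Among the 11 genes of the catalytic steps and helicases the ratios spread the widest, with an interquartile range of 0.15 and a median of 0.06. The DEAH-box helicases act one after another. The first, cdc28, which readies the spliceosome for the first step, had 405 in wild-type cells and 387 in SD5 cells (log2 ratio 0.14). Next, prp16, which remodels it between the steps, had 231 and 181 (-0.15). The third, prp22, which releases the spliced mRNA, had 544 and 403 (-0.23), the lowest ratio of all members. The last, prp43, which takes the spliceosome apart and also serves ribosome synthesis, lay at -0.03. The first-step factor gene cwf25 had 1245 and 1241 (0.20), the highest of the group. The second-step factor genes were mixed: slu7 lay at 0.07 and prp17 at -0.07. The third, prp18, had 106 and 101 (0.13), signals among the dimmest of the members. Its ratio was 0.28 after quantile normalization and 0.22 with the background as a pseudocount.

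Of the 10 other splicing-associated genes, 7 were above 0, with a median log2 ratio of 0.020. The highest of all members was cwf21, the counterpart of budding yeast CWC21, which lies near the catalytic centre, with 2393 in wild-type cells and 2425 in SD5 cells (0.22). This rank depended on the processing, and sme1 was highest after loess normalization and prp18 after quantile normalization and with the background as a pseudocount. It was followed by spf30, a relative of the survival of motor neuron protein gene, with 440 and 440 (0.20), and the J-domain gene cwf23, with 414 and 399 (0.15). The lowest was cwf20, with 599 and 487 (-0.09). Among the dimmest members were saf4, with 200.5 and 174 (-0.0017), and saf1, with 282 and 248 (0.02). Both genes outside splicing were below 0: spf1, the dimmest member, had 95.9 and 73.6 (-0.18), and sap1 had 213 and 169 (-0.13). Without them the median of the other 79 was 0.020.

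How far a ratio strays depends on the signal in these arrays, so each member was also set against the 200 probe sets nearest to it in signal. A robust SD of those neighbours is a spread between probe sets of this pair of arrays, not a replicate error. Over 2 such SDs from the local median lay 3 members, all on the higher side, or 3.70%, where 8.56% of all probe sets did so (4.10% higher and 4.46% lower). They were cwf21 at 3.05 SDs, cwf25 at 2.29 and lsm1 at 2.12, with prp4 just inside at 1.997. The dimmer sme1, with nearly the same ratio as cwf21, lay at 1.78 SDs. On the lower side prp22 lay at -1.81 and the bright lsm6 at -1.77. The members' share outside 2 SDs was thus below that of all probe sets. Of the 81 members, 55 (67.9%) lay above their local median, beside 2453 of all 4905 probe sets (50%). All 9 U1 snRNP genes lay above theirs, while 8 of 11 genes of the U2 snRNP group lay below. The U1 genes were from 0.0018 SDs (usp104) to 0.97 SDs (usp109) above, with a median of 0.42. Almost on their local median were usp104 and usp105, the latter at 0.012 SDs.

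**Figure D3:**
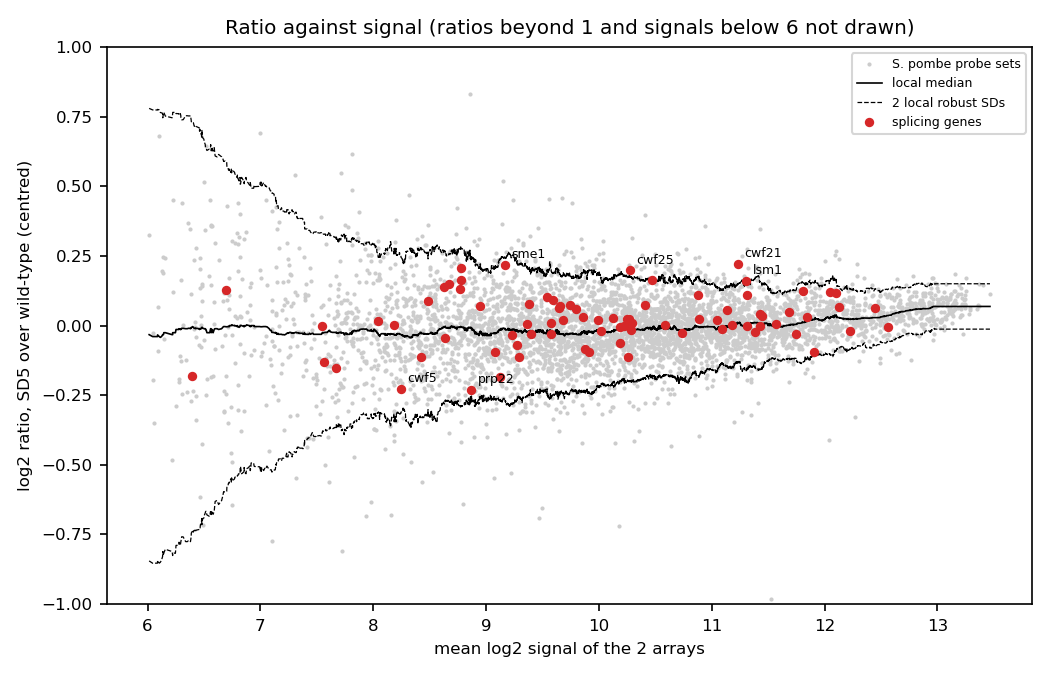
Centred log2 ratio, SD5 over wild-type (vertical), against the mean log2 signal of both arrays (horizontal) for the splicing genes (red) and the other S. pombe probe sets (grey); the solid line is the local median and the dashed lines are 2 local robust SDs from it. Above the upper dashed line lie cwf21, cwf25 and lsm1, and no splicing gene lies below the lower one.

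The symbol rule leaves out splicing genes with other names. From a list of 47 such symbols, chosen by role, 22 were measured, and the rest were not analysed here. An exception among the 22 is sad1, which in S. pombe encodes a spindle pole body protein and not a splicing factor. It was kept in the counts of this list, with 85.4 in wild-type cells and 74.2 in SD5 cells (log2 ratio 0.00060). None of the 22 was 2-fold lower or higher. By over 25% differed 1 of the 22 (4.55%), beside 4.42% of all probe sets in either direction. It was the dim U2 gene msl1, with 48.8 in wild-type cells and 56.2 in SD5 cells (log2 ratio 0.41), which is 1.04 local SDs from its neighbours in signal. Past 2 local SDs lay 1 gene, lea1 of the U2 snRNP, with 3390 and 3208 (0.12, or 2.03 SDs). The lowest was spp42, the gene of the large U5 protein at the catalytic centre, with 1143 and 853 (-0.22). Then came the dim syf2, with 41.0 and 31.5 (-0.18), and the gene of the lariat debranching enzyme, dbr1, with 1116 and 872 (-0.15). The SD5 signal of syf2 was only 1.18 times background, and its ratio lay at -0.39 local SDs. Next to msl1 on the higher side were smn1, which encodes a factor of snRNP assembly, with 824 and 798 (0.16), and the tri-snRNP gene snu66, with 747 and 711 (0.13). This list leaned the other way from the members, with 13 of 22 genes below 0 and a median of -0.02. Above their local median lay 9 of the 22 (40.9%). Over all 103 genes of the members and this list, with sap1, spf1 and sad1 among them, the median was 0.0068.

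Members lie on all 3 chromosomes, 22 on chromosome I, 41 on II and 18 on III. A signal above 0 in SD5 was a condition of membership, so a gene without it could not appear among them. No row was at 0 in only 1 of the arrays, so this condition left out no row with a wild-type signal. Within 100 protein-coding genes of a chromosome end, counted in the reference assembly, lay 5 members. The outermost, cwf18, is the 14th gene from the right end of chromosome III and had 1426 in wild-type cells and 1302 in SD5 cells (log2 ratio 0.07). On the right arm of chromosome II, the neighbours usp109 and spf38 are the 35th and 36th genes from the end. For usp109 the signals were 846 and 772 (0.07), and for spf38 they were 3736 and 3176 (-0.03). The others were lsm8, 63rd from the right end of III, and usp104, 71st from the right end of I. All 5 thus lay within the ratios of the other members.

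The median ratio was lower in longer genes, in the members as in all named genes. The 41 members with an annotated gene length up to 1723 bp had a median log2 ratio of 0.03 and the 40 longer ones 0.00049. Over all 2874 named genes with a ratio the same division gave 0.02 and -0.02. Spearman's rho between ratio and length was -0.23 over the members and -0.20 over the named genes, as a description across genes that share the 2 arrays. Signal moved with length as well: the shorter members had a median signal of 1363 and the longer ones 788. The long genes prp22, prp16 and prp28 have low ratios, but prp10, cdc28 and cwf10 also exceed that length and lay above 0. Among the shorter genes, cwf5 (1230 bp) had a low ratio of -0.23. Above 0 lay 28 of the 41 shorter members and 21 of the 40 longer ones. The part of length or signal in the ratios of single members was not tested.

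The members' median minus that of all probe sets lay between 0.0175 and 0.0320 over the main processing and 8 alternatives. The U2 snRNP group was the only one of the 8 splicing groups whose median stayed below that of all probe sets in each. That group holds members only. The U2 genes lea1 and the dim msl1, named above from the other list, lay above 0, at 0.12 and 0.41 in the main processing. Some alternatives shift all members alike and could hardly change these comparisons. They are no centring, centring on hybridisation controls, background at the 75th percentile, and leaving signals under background as they were. Background at the 10th percentile of the S. pombe signals also shifted alike the 77 members that kept a ratio, and left out the rest. Without centring, when 6 members (prp22, cwf5, prp28, spf1, prp16 and sap1) were lower by the factor of a 25% difference, 16.0% of all probe sets were past that factor in either direction.

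**Figure D4:**
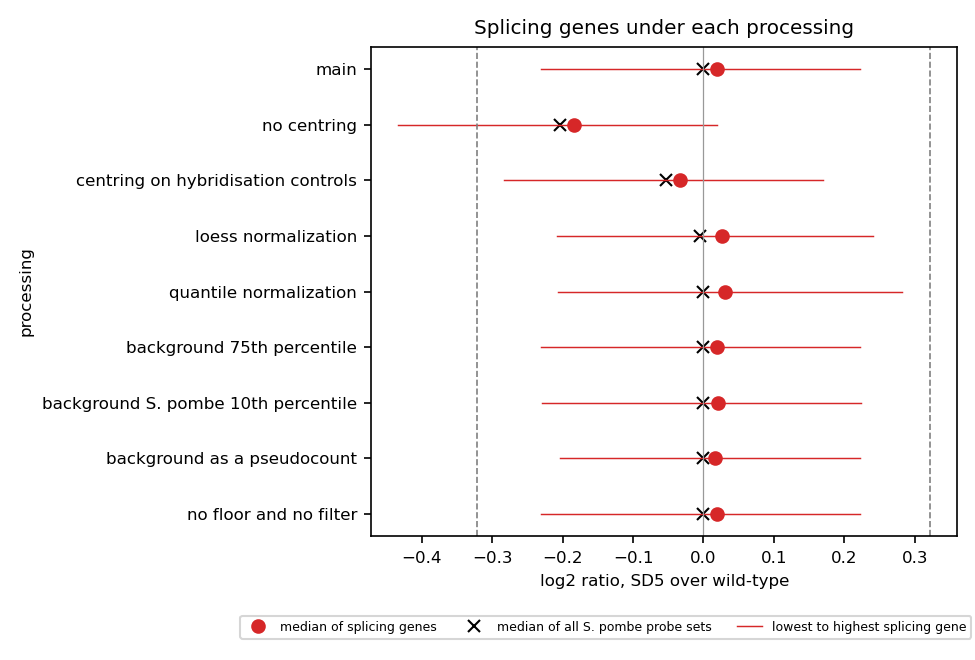
Median log2 ratio, SD5 over wild-type (horizontal), of the splicing genes (red point), their lowest to highest value (red line) and the median of all S. pombe probe sets (cross) under the main processing and 8 alternatives; dashed lines mark a 25% difference. The splicing genes' median follows that of all probe sets, also without centring, where they are -0.18 and -0.20.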

How the data were processed

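The authors deposited an intensity on a linear scale for every probe set of each array. The submitters' processing notes name GCOS 1.4 without its role, and how signals were scaled is not stated in the labels. Per the labels' protocols, polyadenylated RNA was amplified from its 3′ end and labelled with biotin. Of 10928 rows, 5748 were 0 in both arrays and were left out, as were 181 control and reporter rows. Gene symbols came from the probe table of the platform and were matched by gene identifier to the reference ASM294v3. Before log2, any signal under background was raised to it. A probe set under background in both arrays, or with a bound pointing the wrong way, gave no ratio. The median ratio of probe sets that passed background in both was then subtracted. The number of arrays limits the precision. No test was made with 1 array per strain. The procedure was tested on simulated data. Members, role groups and lists were chosen with earlier results of these data known, and spf1 was set outside splicing after the member list was read. Both signals are printed for the 10 lowest and 10 highest members, the 6 brightest and 6 dimmest, all Sm and Lsm genes and the extremes of each group. Calculations used Python 3.11.15 with numpy 2.4.6, pandas 2.3.3 and statsmodels 0.14.6.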

Additional observations from a re-analysis of the deposited data

How the results depend on the processing

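No paired analysis was possible because each strain had 1 array. Without centring, all ratios shift by -0.20. The median log2 ratio of the members was then -0.18 (3 of 81 above 0), beside -0.20 for all probe sets. By over 25% differed 6 members, where 16% of all probe sets did. The group medians were then -0.16 for the Sm core, -0.14 for Lsm, -0.18 for U1, -0.25 for U2, -0.15 for the tri-snRNP, -0.20 for the Prp19/Cdc5 complex, -0.15 for the catalytic steps, -0.18 for the other splicing-associated genes and -0.36 for the 2 genes outside splicing. With centring on 27 hybridisation controls the members' median was -0.03 and that of all probe sets -0.05, so the sign of a group's median is only relative to the array's shift. After quantile normalization the median of the other splicing-associated genes was 0.094, that of the Sm core 0.0264, that of the Prp19/Cdc5 complex 0.0294 and that of U2 -0.0233; the cause was not tested. The median of the 2 genes outside splicing was 0.0286 after quantile normalization and -0.026 with the background as a pseudocount. No member was past 2-fold under any of the 8 alternatives, and none differed by 25% except without centring. The genes cwf21, cwf25 and lsm1 lay over 2 local SDs in each, joined by prp4 after loess normalization and with the pseudocount. The alternatives that shift all members alike could hardly change this. When the 10th percentile of the S. pombe signals served as background, 77 members had a ratio. Splitting the members by gene length was chosen after seeing the data. With 1 array per strain, differences as small as those between the members cannot be told from array error.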
